A study of Mus musculus with 29 samples.

Results

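Hlf, Mecom, Prdm16, Cd34, Esam, Procr and Adgrg1 encode regulators or surface molecules of blood stem and progenitor cells. They were described here by the acetylation of histone H3 at lysine 27 (H3K27ac) around them. H3K27ac marks active promoters and enhancers, and it was measured by chromatin immunoprecipitation and sequencing (ChIP-seq). The 7 genes were chosen by name and not by their values. Each was given its RefSeq span on mm10 (GRCm38) and 50 kb on either side, its window. Merging the H3K27ac regions called in 14 libraries gave 112928 elements, of which 119 lay in the 7 windows and 90024 in the window of any of 21887 protein-coding genes. Of the 119, 56 were called in a single library and 1 in all 14, and 30 lay nearer to a gene other than the one whose window held them.

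All cells came from C57BL/6 mice, and ages are not given in the sources used here. Wild-type (WT) bone marrow gave LSK cells, sorted as Lin- Sca1+ CD117+, which hold the stem cells with all multipotent progenitors. Lymphoid-primed multipotent progenitors (LMPP) were sorted from bone marrow as Lin– CD117+ Sca-1+ cells that were also CD135+, CD150– and IL-7R–, and they came from WT mice, from mice in which an enhancer at +56 kb of Irf8 was deleted (d+56kb) and from IRF8-deficient mice (IRF8KO). The d+56kb bone marrow also gave granulocyte-monocyte progenitors (GMP; CD16/32+ and CD117+, and negative for Lin, Sca-1, IL-7R and CD115) and monocyte-dendritic cell progenitors (MDP; CD115+ and CD117+, and negative for Lin, Sca-1 and IL-7R). Type 1 classical dendritic cells (cDC1; F4/80–, XCR1+, CD172a-, high in MHC class II and CD11c) came from WT spleen. No gate used a product of the 7 genes. LSK and LMPP were set apart by CD135, CD150 and IL-7R alone, and the LSK gate does not leave the LMPP gate out. Binding of IRF8 and CEBPA was mapped in WT splenic cDC1 (Thy1.2– B220– CD49b– CD8a+) and WT bone marrow monocytes (Mo; CD117– CD135– Ly6G– CD115+), both enriched on magnetic beads only. Each group had 2 libraries, and the labels do not say that these came from different animals, so that p-values may measure technical spread only. GMP and MDP of WT mice were not used here, so later stages are compared with LMPP within d+56kb cells.

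The libraries differed in depth by group. Mean total tags, in M (mega), were 7.74 M in LSK, 2.82 M in WT LMPP, 3.33 M in d+56kb LMPP, 1.36 M in IRF8KO LMPP, 2.82 M in GMP, 2.59 M in MDP and 8.15 M in cDC1, and the share of tags in called regions averaged 37.9%, 19.4%, 37.4%, 18.2%, 54.1%, 44.8% and 34.4%. The 2 cDC1 libraries stood apart from each other in this share, at 52.3% and 16.4%. Called regions covered 48.3 Mb in LSK, 23.6 Mb in WT LMPP, 36.6 Mb in d+56kb LMPP and 18.0 Mb in IRF8KO LMPP. Covered bases were therefore scaled so that each of the 14 libraries had the same total, and levels below are in scaled kb per window unless said otherwise. Widths of single elements, in bases, are as called and without scaling, and they also follow the total covered length of the library. At Irf8, the +56 kb enhancer had a call in 6 of 6 WT libraries and 0 of 6 d+56kb libraries, from which it is deleted. The 2 IRF8KO libraries had no call there either, which does not check their label. Dendritic markers summed to 251 to 279 scaled kb in cDC1 and to no more than 51.5 in any other group.

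HLF is a transcription factor of the PAR bZIP family expressed in blood mainly by stem cells. Mecom encodes EVI1 from an internal start and a longer form with a PR domain from an upstream start, and Prdm16 encodes a related PR domain protein; both are needed to maintain stem cells. CD34 is a sialomucin of progenitors and vessels, ESAM an adhesion molecule of vessels and stem cells, Procr encodes the endothelial protein C receptor (EPCR, CD201), and Adgrg1 encodes the adhesion receptor GPR56. As stem cells lose multipotency, the 3 regulators are known to be turned down, while the surface molecules are kept to differing stages.

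Promoters are shown for the 3 regulators and for Procr, whose start element was called in LSK and cDC1 but in no WT LMPP library, because the elements over their starts are described below. Each sequence is the 250 bases before a RefSeq start site (GRCm38.p6), 5′ to 3′ on the strand of the gene. Hlf starts at chr11:90390917, Mecom at chr3:30013204 (internal) and chr3:30509759 (upstream) and Prdm16 at chr4:154636873, all on the minus strand, and Procr at chr2:155751217 on the plus strand. Capitals mark matches on either strand of GGAA (the ETS core), of the GATA motif in the forms AGATAA (with A first) and TGATAA (with T first), of the interferon-stimulated response element, of TTGCNNAA (C/EBP) and of the PAR bZIP motif in the forms TTACGTAA and TTACATAA.
Hlf: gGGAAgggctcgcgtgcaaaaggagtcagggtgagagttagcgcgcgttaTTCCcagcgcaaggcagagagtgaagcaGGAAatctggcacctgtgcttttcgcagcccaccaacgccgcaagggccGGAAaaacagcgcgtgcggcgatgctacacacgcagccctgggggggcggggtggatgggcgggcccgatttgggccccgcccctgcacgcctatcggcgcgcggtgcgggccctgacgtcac
Mecom, internal start: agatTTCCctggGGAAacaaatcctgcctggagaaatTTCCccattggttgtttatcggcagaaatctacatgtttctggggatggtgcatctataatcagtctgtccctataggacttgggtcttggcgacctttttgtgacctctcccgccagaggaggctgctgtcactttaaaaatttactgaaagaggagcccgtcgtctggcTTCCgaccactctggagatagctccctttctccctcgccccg
Mecom, upstream start: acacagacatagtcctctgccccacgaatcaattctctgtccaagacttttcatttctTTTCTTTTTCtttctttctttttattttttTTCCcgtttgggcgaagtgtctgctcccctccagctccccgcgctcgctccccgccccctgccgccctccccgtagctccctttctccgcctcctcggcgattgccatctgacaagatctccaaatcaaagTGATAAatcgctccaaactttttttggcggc
Prdm16: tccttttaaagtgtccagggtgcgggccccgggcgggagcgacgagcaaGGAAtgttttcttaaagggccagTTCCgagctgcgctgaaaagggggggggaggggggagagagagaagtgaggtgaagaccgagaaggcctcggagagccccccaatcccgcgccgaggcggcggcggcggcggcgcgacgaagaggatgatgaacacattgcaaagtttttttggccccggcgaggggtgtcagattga
Procr: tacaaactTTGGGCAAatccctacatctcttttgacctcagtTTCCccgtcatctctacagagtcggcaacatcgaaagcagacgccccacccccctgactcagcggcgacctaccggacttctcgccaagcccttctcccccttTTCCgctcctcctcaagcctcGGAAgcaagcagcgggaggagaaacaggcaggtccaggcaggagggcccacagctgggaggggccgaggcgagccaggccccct

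The ETS core was in all 5 sequences, with 4 matches at Hlf, 4 at the internal and 1 at the upstream Mecom start, 2 at Prdm16 and 3 at Procr, but 93.4% of 32851 promoters of this length hold it. The upstream Mecom promoter had 1 GATA match and 1 interferon-stimulated response element, motifs found in 16.6% and 2.98% of promoters. Procr had 1 C/EBP match, as 9.56% of promoters do. None of the 5 held the PAR bZIP motif (0.931% of promoters), to which HLF itself binds. E-boxes (CANNTG, 66.2% of promoters) are left in lower case, with 1 match each at Hlf, upstream Mecom and Procr. No match shared a base with a match of another motif. These are matches of letters and say nothing of binding.

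The 3 regulators carried more H3K27ac in LSK than in every LMPP library of every genotype, and the 4 surface genes did not. Values of LSK and of all 6 LMPP libraries did not overlap for Hlf, Mecom and Prdm16, 3 of 7 genes, against 6.57% of 19227 genes that were higher in LSK in this way and 6.01% that were lower. This comparison over the 3 genotypes was added after the data were seen. From WT LMPP alone, the log2 differences of LSK were 1.83, 0.89 and 0.54 at Hlf, Mecom and Prdm16. At Cd34, Esam, Procr and Adgrg1 they were 0.09, 0.63, 0.89 and 0.15, so regulators and surface genes overlapped. The regulators were not tested against the surface genes. By the test within single genotypes the calls were fewer. Of the 7, 1 (Hlf) was higher in LSK than in WT LMPP (limma, Benjamini-Hochberg adjusted p under 0.05; 0.941% of all genes higher), 2 (Hlf, Procr) than in IRF8KO LMPP (11.1% of all genes higher) and 0 than in d+56kb LMPP (0.0104% of all genes higher), where 2 had an unadjusted p under 0.05. The medians over the 7 log2 differences were 0.63, 0.26 and 0.36, beside -0.02, 0.01 and 0.00 over all genes tested. The scaling of libraries weighs on these counts: against WT LMPP 181 of the 236 genes called were higher in LSK, and without scaling 10442 of 10739, the 7 members among them. Against IRF8KO LMPP these were 2125 of 3645 and 13020 of 13592, again with all 7.

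**Figure D1:**
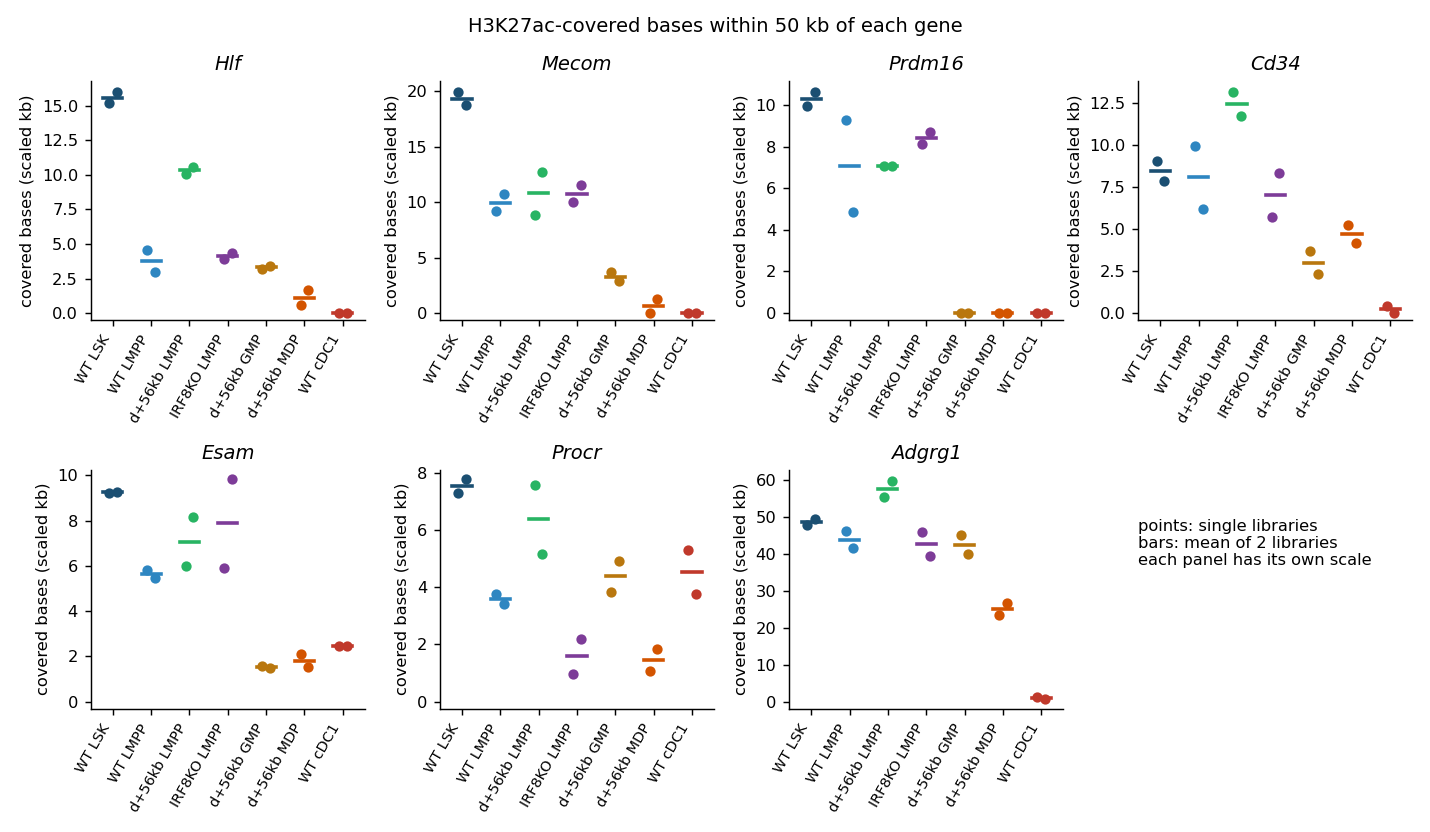
H3K27ac-covered bases (scaled kb) in the window of each gene, with a point for each library and a bar for the mean of 2 libraries; groups stand along the horizontal axis and each panel has its own vertical scale. LSK lies above all LMPP libraries for Hlf, Mecom and Prdm16, and Procr is the gene that stays high in cDC1.

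Hlf had the largest difference of the 7 between LSK and WT LMPP. Its window held 15.2 and 16.0 scaled kb in the LSK libraries, 4.54 and 2.95 in WT LMPP, 10.1 and 10.6 in d+56kb LMPP and 3.92 and 4.34 in IRF8KO LMPP. LSK was highest, d+56kb LMPP stood between, and the other LMPP libraries were low. The log2 difference of LSK was 1.83 ± 0.25 (SE) from WT LMPP (limma, adjusted p = 0.0107) and 1.69 ± 0.25 from IRF8KO LMPP (adjusted p = 0.00106). From d+56kb LMPP it was 0.55 ± 0.25 and did not pass (adjusted p = 1, unadjusted p = 0.0422). The call against WT LMPP was lost without either LSK library (adjusted p = 0.161 and 0.12, with 0 and 1 of all genes then called) and with the share of tags in called regions as a covariate (1.73, adjusted p = 0.125; no gene of 19227 was then called). The group differences in depth given above moved with this result.

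Within LMPP, Hlf was also higher without the enhancer of Irf8 than in WT. The d+56kb libraries exceeded the WT libraries by 1.27 ± 0.25 on the log2 scale (limma, adjusted p = 0.0404), the 1 call among the 7 genes, where 0.442% of all genes were higher. IRF8KO LMPP did not repeat it, at 0.13 ± 0.25 from WT LMPP (adjusted p = 0.804); whether the effects of the 2 genotypes differ was not tested. The call was lost under most alternatives, among them leaving out either d+56kb library (adjusted p = 0.272 and 0.3) or the second WT library (0.145). Tags in called regions were 36.8% to 38.1% in d+56kb and 15.0% to 23.7% in WT LMPP, and their part in the result was tested only through the covariate, with which the difference was 1.18 (adjusted p = 0.291).

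The Hlf window held no other gene, and its 20 elements were all nearest to Hlf. The start site itself lay in a called region in 6 of 14 libraries, 2 of LSK, 2 of d+56kb LMPP, 1 of IRF8KO LMPP and 1 of GMP. The element that spans it, chr11:90385985-90391354, was called in 12 of 14. As called and without scaling, it covered 4837 and 5006 bases in LSK, 1407 and 1623 in WT LMPP, 4740 and 4693 in d+56kb LMPP, 1999 and 1174 in IRF8KO LMPP, 2406 and 2706 in GMP, 501 and 787 in MDP and 0 in both cDC1 libraries. As called, it was nearly as wide in d+56kb LMPP as in LSK and narrower in the other LMPP. On the scaled measure, both d+56kb LMPP libraries lay above LSK and both WT LMPP libraries below it. The first IRF8KO LMPP library then reached the level of LSK, and the second did not.

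Inside the gene the difference was larger. The element 19.8 kb downstream of the start, chr11:90368271-90374051, covered 4733 and 4154 bases in LSK, 501 and 0 in WT LMPP, 1153 and 501 in d+56kb LMPP, 0 and 501 in IRF8KO LMPP and none in GMP, MDP or cDC1. The element at 10.2 kb, chr11:90378780-90382751, covered 2860 and 3513 bases in LSK and 2260 and 1127 in d+56kb LMPP, and had no call in WT LMPP, IRF8KO LMPP or any later cell. Both were narrow or without a call in WT and IRF8KO LMPP, and d+56kb LMPP kept the second more widely than the first. A further 3 Hlf elements were called in both LSK libraries and in no other library: chr11:90340229-90340865 and chr11:90358061-90358819 within the gene, and chr11:90419301-90420515, at -29.0 kb, upstream of the start. They were narrow, with LSK means of 634.5, 501 and 858 bases, 501 being the narrowest width in any H3K27ac library.

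Mecom showed the same order of LSK and LMPP without a call in a single genotype. Its window held 19.9 and 18.8 scaled kb in LSK, 9.18 and 10.8 in WT LMPP, 8.85 and 12.8 in d+56kb LMPP and 9.98 and 11.5 in IRF8KO LMPP. The LMPP genotypes overlapped one another, and all 6 libraries lay below LSK. The log2 differences of LSK were 0.89 ± 0.30 (SE), 0.81 ± 0.30 and 0.80 ± 0.30 from WT, d+56kb and IRF8KO LMPP, with limma adjusted p of 0.124, 0.976 and 0.0795. With a pseudocount of 4000 bases the first and the third passed (adjusted p = 0.0266 and 0.00982).

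Both Mecom start sites were marked in LSK. The element at the upstream start, chr3:30503556-30510946, was the widest of the gene and covered 7391 and 6383 bases in LSK, 3981 and 3466 in WT LMPP, 5424 and 5378 in d+56kb LMPP, 3936 and 3131 in IRF8KO LMPP, 2229 and 2505 in GMP, 0 and 501 in MDP and none in cDC1. The element at the internal start, from which EVI1 is made, chr3:30008577-30013695, covered 4909 and 3927 bases in LSK, 1397 and 501 in WT LMPP, 1123 and 1331 in d+56kb LMPP, 649 and 644 in IRF8KO LMPP and 501 and 0 in GMP. All 6 LMPP libraries had a call in both elements, narrower than in LSK before scaling. Both LSK libraries had a larger total covered length than any LMPP library. On the scaled measure, LSK stayed above all 6 LMPP libraries at the internal start. At the upstream start this order was lost, and a library of each LMPP genotype exceeded both LSK libraries. The start sites themselves lay in a called region in both LSK libraries, while among the LMPP libraries the internal start did so in 1 of 2 WT, 2 of 2 d+56kb and 1 of 2 IRF8KO and the upstream start in 1 of 2 WT, 1 of 2 d+56kb and 0 of 2 IRF8KO.

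Between the starts, the Mecom span held LSK elements that no LMPP library had. The most conspicuous, chr3:30105055-30108478, lay at -93.6 kb from the internal start, upstream of it, and covered 3325 and 2822 bases in the LSK libraries and none in the other 12. Among 643 elements of gene windows called in both LSK libraries and nowhere else, it ranked 2 by its mean LSK width of 3073.5 bases. A pair of others had the same pattern, chr3:30066125-30067289 and chr3:30160840-30162334, with LSK means of 817 and 1149 bases. These Mecom and Hlf elements make 6 of the 46 elements of the 7 genes called in both LSK libraries, beside 3.09% of 20778 such elements over all gene windows.

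**Figure D2:**
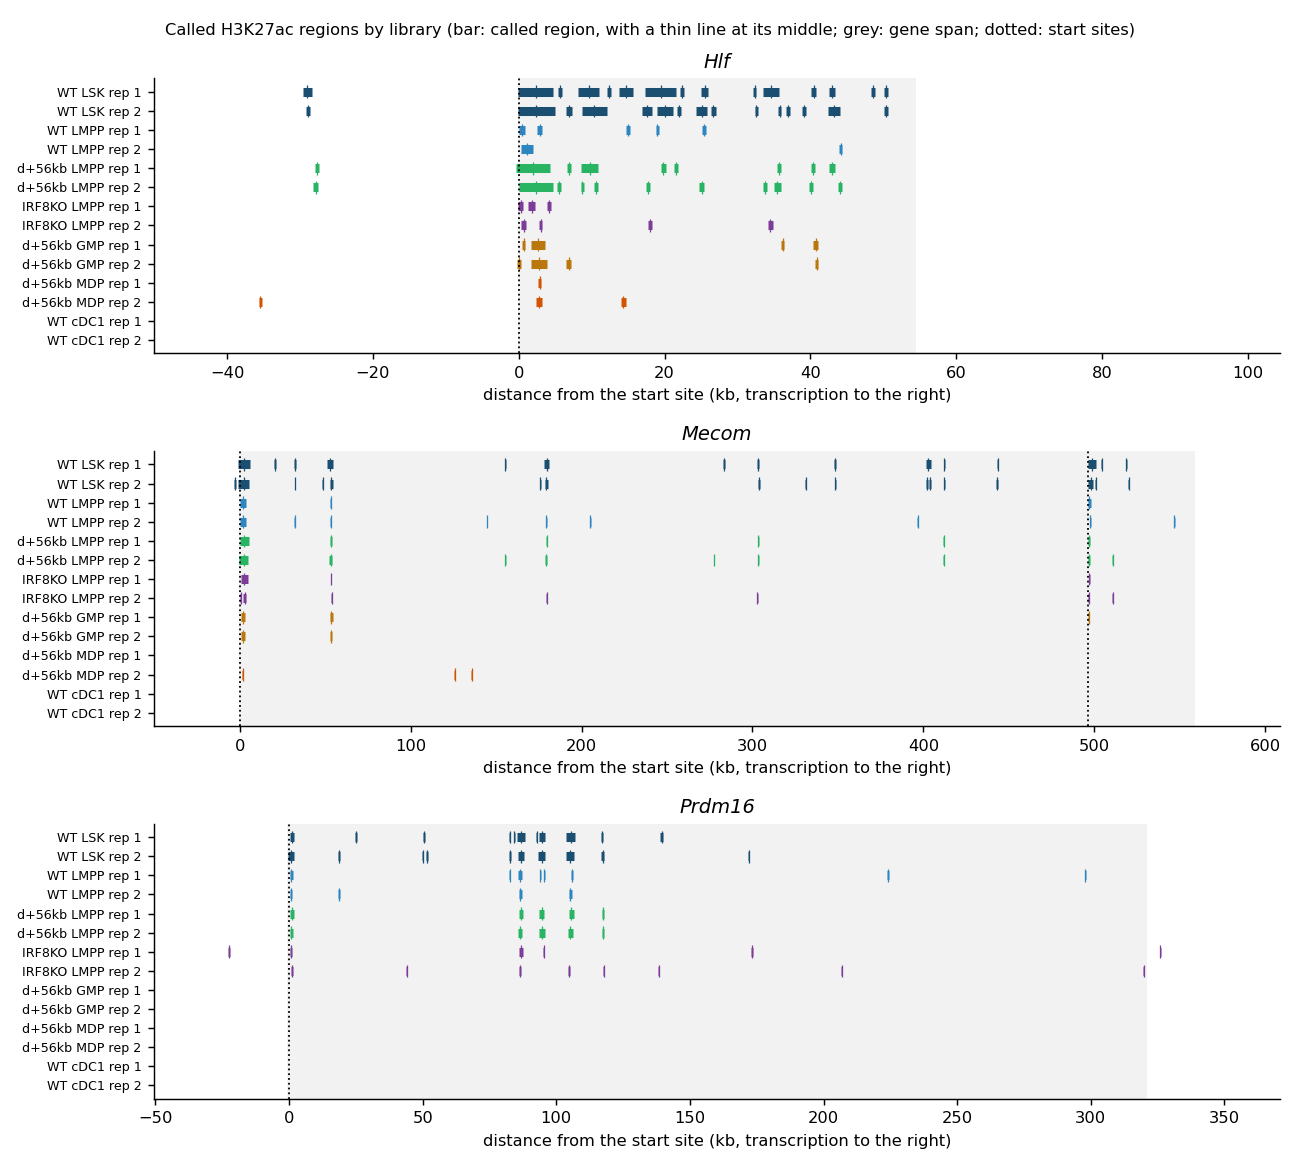
Called H3K27ac regions at Hlf, Mecom and Prdm16 in each of the 14 libraries, by distance from the start site in kb (upstream start for Mecom), with a thin line at the middle of each region, the gene span in grey and start sites dotted. Regions are drawn as called, without scaling. LSK rows carry the most and the widest regions, and Prdm16 is empty in GMP, MDP and cDC1.

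Prdm16 differed less from LSK to LMPP and more sharply beyond. Its window held 9.96 and 10.6 scaled kb in LSK, 9.28 and 4.84 in WT LMPP, 7.08 and 7.05 in d+56kb LMPP and 8.14 and 8.68 in IRF8KO LMPP. Part of the IRF8KO level came from regions of the narrowest width, 501 bases, each called in a single library. LSK and WT LMPP held such regions too. LSK exceeded the highest LMPP library only narrowly, and the log2 differences of 0.54 ± 0.25 (SE), 0.49 ± 0.25 and 0.26 ± 0.25 did not pass (limma, adjusted p = 0.25, 1 and 0.477). Without the first WT LMPP library the first of these was 0.95 and passed (adjusted p = 0.0467). GMP, MDP and cDC1 had no called region in the window in any of their 6 libraries.

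The widest Prdm16 calls lay in the element that spans the start and in a group of elements within the gene. The start site itself lay in a called region in 1 LSK library and in no other library. The element that spans it, chr4:154634897-154637124, covered 1661 and 2116 bases in LSK, 978 and 501 in WT LMPP, 1493 and 948 in d+56kb LMPP and 651 and 961 in IRF8KO LMPP. The elements 86.8, 94.6 and 105.3 kb downstream of the start were the widest of its 24. The one at 105.3 kb, chr4:154529842-154533242, covered 3398 and 2961 bases in LSK, 803 and 1439 in WT LMPP, 1921 and 1732 in d+56kb LMPP and 0 and 636 in IRF8KO LMPP. Before scaling, LSK was the widest at each of these elements. On the scaled measure, which allows for its larger total covered length, LSK stayed above every LMPP library only at the element at 105.3 kb. None of the 6 Prdm16 elements called in both LSK libraries lacked a call in every LMPP library.

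Cd34, the first of the surface genes, showed no step in one direction from LSK to LMPP. Its window held 9.07 and 7.89 scaled kb in LSK, 9.95 and 6.21 in WT LMPP, 13.2 and 11.7 in d+56kb LMPP and 5.70 and 8.33 in IRF8KO LMPP, and LSK lay within the range of LMPP. The log2 differences of LSK were 0.09 ± 0.26 (SE), -0.51 ± 0.26 and 0.26 ± 0.26 (limma, adjusted p = 0.893, 1 and 0.52). The element that spans the start, chr1:194937796-194947557, as called covered 8477 and 6991 bases in LSK and 9578 and 8001 in d+56kb LMPP. It covered 4374 and 4479 in WT and 2403 and 3464 in IRF8KO LMPP. On the scaled measure, both WT and both d+56kb LMPP libraries lay above LSK there, and the IRF8KO libraries lay on either side of LSK. The element persisted in GMP (1934 and 1565) and MDP (3495 and 3393) and was absent from cDC1. The element chr1:194994069-194996185, 56.3 kb downstream of the start, was called in LSK (1907 and 1628 bases) and d+56kb LMPP (2113 and 1779) and in neither WT nor IRF8KO LMPP.

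Esam, the adhesion molecule, fell between these patterns. Its window held 9.22 and 9.26 scaled kb in LSK, 5.80 and 5.46 in WT LMPP, 5.98 and 8.14 in d+56kb LMPP and 5.92 and 9.82 in IRF8KO LMPP. WT LMPP lay below LSK, at a log2 difference of 0.63 ± 0.22 (SE) that did not pass (limma, adjusted p = 0.14), and IRF8KO LMPP overlapped LSK. Only 2 of its 10 elements were nearest to Esam, and the rest were nearer to Msantd2 or Nrgn. Over elements nearest to Esam alone, LSK held 1.94 ± 0.57 scaled kb (SD, n = 2) and both WT LMPP libraries held 0, and this difference passed (adjusted p = 0.0388). It came mainly from the element within the gene, chr9:37529211-37531681, which covered 2317 and 1972 bases in LSK, 0 and 0 in WT LMPP, 1002 and 501 in d+56kb LMPP, 0 and 501 in IRF8KO LMPP, none in GMP or MDP, and again 1353 and 1057 in cDC1.

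Procr, the receptor also known as EPCR, had its lowest window level of LSK and LMPP in IRF8KO LMPP, a difference called against LSK only. Its window held 7.28 and 7.76 scaled kb in LSK, 3.76 and 3.43 in WT LMPP, 7.57 and 5.16 in d+56kb LMPP and 0.983 and 2.20 in IRF8KO LMPP. LSK and d+56kb LMPP overlapped, and WT and IRF8KO LMPP lay below both. Over elements nearest to Procr alone, WT LMPP held 0.782 and 0.695 scaled kb and IRF8KO LMPP 0.983 and 0, which overlapped. A difference between IRF8KO and d+56kb LMPP was not tested. LSK exceeded IRF8KO LMPP by 1.76 ± 0.27 on the log2 scale (SE; limma, adjusted p = 0.00134), WT LMPP by 0.89 ± 0.27 (adjusted p = 0.0937) and d+56kb LMPP by 0.23 ± 0.27 (adjusted p = 1). IRF8KO LMPP differed from WT LMPP by -0.87 ± 0.27 (adjusted p = 0.0631), and without the second IRF8KO library by -1.21 (adjusted p = 0.0112). None of the 7 genes passed in that comparison of genotypes with all libraries, where 1 had an unadjusted p under 0.05 and 7.81% of all genes passed.

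The start of Procr was marked mainly in LSK and cDC1. These were also the deepest H3K27ac groups, with means of 7.74 M and 8.15 M tags, and the part of depth was not tested. The element there, chr2:155748957-155752057, covered 1185 and 773 bases in LSK, 3066 and 2450 in cDC1, 501 and 0 in d+56kb LMPP and none in WT LMPP, IRF8KO LMPP, GMP or MDP. The start site itself lay in a called region in 2 of 2 LSK libraries, 2 of 2 cDC1 libraries and none of the other 10. A second element, chr2:155742044-155745132, at -7.6 kb, covered 2801 and 2897 bases in LSK, 501 and 501 in WT LMPP, 1338 and 2235 in d+56kb LMPP, 501 and 0 in IRF8KO LMPP and 758 and 0 in cDC1. The widest in the window, chr2:155723294-155730321, lay nearest to Edem2 and covered 4275 and 5111 bases in GMP, close to its 6035 and 5780 in LSK, so that most of the level of the window in GMP came from an element nearer to the neighbour.

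Adgrg1 was the most densely marked of the 7. In LSK its window held 349 bases per kb of window, ahead of Hlf (101), Esam (83.8), Procr (72.1), Cd34 (69.2), Mecom (29.4) and Prdm16 (24.4). It held 47.7 and 49.5 scaled kb in LSK, 46.2 and 41.5 in WT LMPP, 55.4 and 59.8 in d+56kb LMPP and 45.997 and 39.3 in IRF8KO LMPP, so that d+56kb LMPP was highest and the rest lay close. The log2 differences of LSK were 0.15 ± 0.13 (SE), -0.24 ± 0.13 and 0.19 ± 0.13, and none passed (limma, adjusted p = 0.545, 1 and 0.309). One element, chr8:94975448-95002805, covers most of the gene and both start sites, and it covered 26912 and 25059 bases in LSK, 11264 and 10624 in WT LMPP, 20046 and 18450 in d+56kb LMPP and 7176 and 6886 in IRF8KO LMPP before scaling. Of its 21 elements, 16 lay nearest to Adgrg5, Adgrg3 or Drc7, and 6 of the 7 called in both LSK libraries were called in all 6 LMPP libraries (35.1% of such elements over all gene windows).

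**Figure D3:**
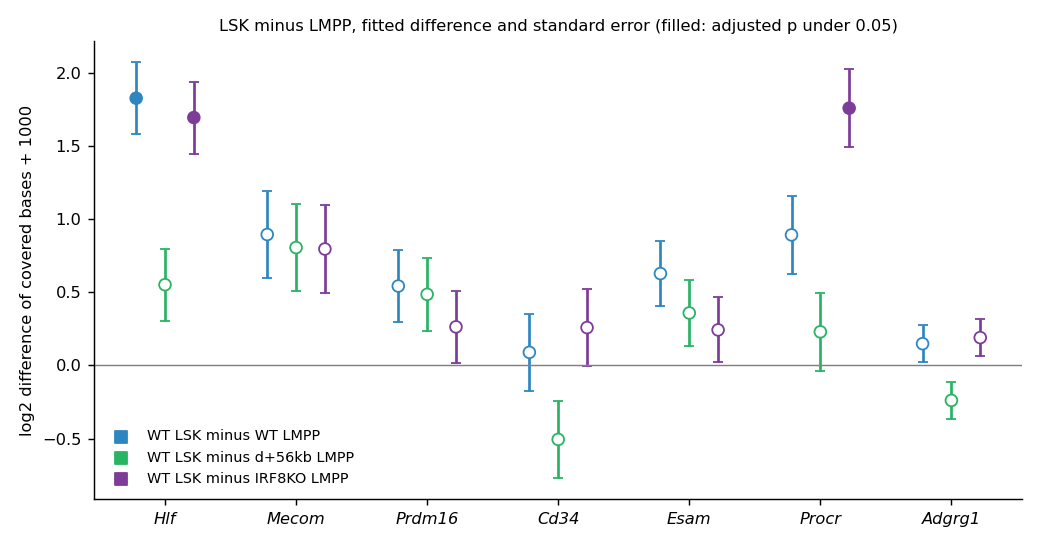
Fitted log2 difference of LSK from each LMPP genotype for the 7 genes, with the standard error; the vertical axis is log2 of scaled covered bases plus 1000, and filled points have a limma adjusted p under 0.05. Hlf stands highest against WT LMPP and Procr, followed by Hlf, against IRF8KO LMPP, Mecom is alike against the 3 genotypes, and Cd34 and Adgrg1 lie near or below 0.

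Counted by element, the 7 genes had 46 elements called in both LSK libraries. Of these 18 had no call in WT LMPP (39.1%, beside 26.8% over all gene windows), 9 had none in d+56kb LMPP (19.6% beside 9.75%) and 16 had none in IRF8KO LMPP (34.8% beside 37.4%). The shares lay above the background in WT and d+56kb LMPP and near it in IRF8KO LMPP, the shallowest group. In the other direction, no element of the 7 genes was called in both WT LMPP libraries and in neither LSK library, out of 18 (0.554% over all windows), and 0 of 17 in IRF8KO LMPP (1.03%) and 2 of 38 in d+56kb LMPP (1.9%). The 14 elements called in both LSK and all 6 LMPP libraries were wide in LSK, with a median of 4670 bases, and the 18 without a call in WT LMPP were narrow, with a median of 971. Over all gene windows these medians were 2410 and 902 bases, so that width in LSK went with presence in LMPP there too.

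**Figure D4:**
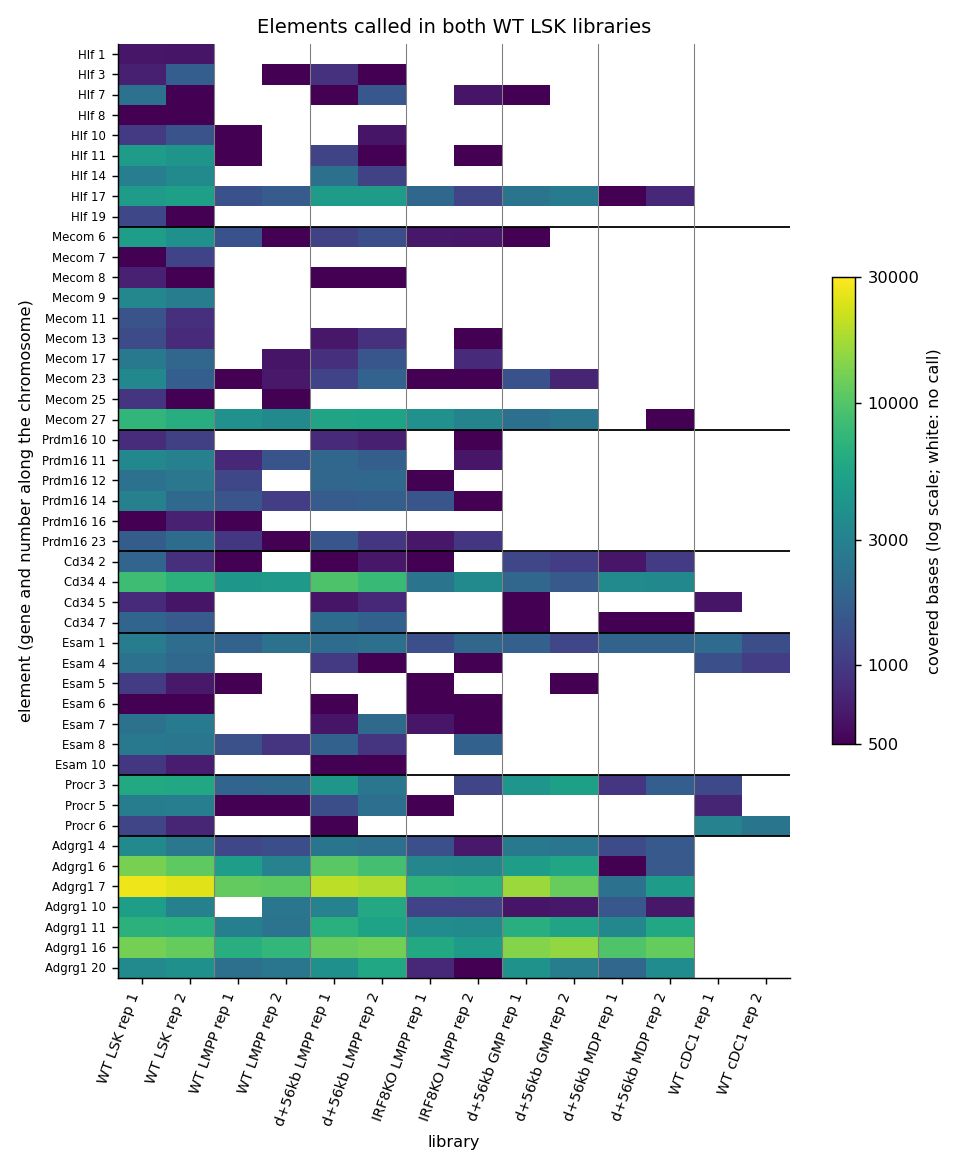
Bases covered, on a log colour scale, in each of 14 libraries for the 46 elements of the 7 genes called in both LSK libraries; white marks no call. Rows of Hlf and Mecom with colour in the LSK columns alone are the 6 elements without a call elsewhere, and the Adgrg1 rows are filled up to MDP except in 1 WT LMPP library of 1 row.

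Past LMPP and within d+56kb cells, the mark receded at nearly all 7 genes. Here 6 of 7 were lower in GMP than in LMPP (8.58% of all genes lower) and 7 of 7 in MDP (8.22% of all genes lower). The median log2 differences were -1.45 and -1.57, beside 0.00 and 0.00 over all genes tested. In GMP, Hlf held 3.21 and 3.39 scaled kb, Mecom 3.71 and 2.88, Cd34 3.71 and 2.31 and Esam 1.58 and 1.50, all below d+56kb LMPP without overlap. Their log2 differences from LMPP ran from -1.40 ± 0.25 (SE) at Hlf to -1.77 ± 0.26 at Cd34 (limma, adjusted p between 0.000249 and 0.00423). Adgrg1 fell least, to 45.0 and 40.0 scaled kb, a log2 difference of -0.43 ± 0.13 (adjusted p = 0.0293) that was lost without any 1 of the 4 libraries (adjusted p from 0.0643 to 0.234) and without scaling. Mecom likewise lost its call without the second GMP (adjusted p = 0.053) or the second LMPP library (0.0655). Procr did not pass in GMP, at 3.85 and 4.93 scaled kb and a log2 difference of -0.44 ± 0.27 (adjusted p = 0.329). The drop depends in part on the LMPP genotype. Means in WT LMPP were 3.74 scaled kb at Hlf, 3.59 at Procr and 43.8 at Adgrg1, against 3.30, 4.39 and 42.5 in GMP. At Mecom, Prdm16, Cd34 and Esam, GMP lay below WT LMPP too, without overlap. GMP was not tested against WT LMPP.

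In MDP, Hlf, Mecom, Procr and Adgrg1 held less than in GMP, and Prdm16 was at 0 in both; whether MDP and GMP differ was not tested. Hlf held 0.567 and 1.68 scaled kb in MDP and Mecom 0 and 1.26, differences of -2.47 ± 0.25 (SE) and -2.95 ± 0.30 on the log2 scale from d+56kb LMPP (limma, adjusted p = 2.62e-05 and 2.92e-05). Procr held 1.08 and 1.86 scaled kb, at -1.57 ± 0.27 (adjusted p = 0.00123). Adgrg1 held 23.4 and 26.8, at -1.17 ± 0.13 (adjusted p = 4.6e-05), and by elements nearest to it 5.36 ± 0.67 (SD, n = 2), against 32.3 ± 2.3 in d+56kb LMPP. Cd34 stood apart, with 5.24 and 4.15 scaled kb in MDP, above both GMP libraries, and -1.24 ± 0.26 from LMPP (adjusted p = 0.00539). Its call was lost without the first LMPP or the second MDP library (adjusted p = 0.052 and 0.0608). Monocyte markers summed to 73.9 to 75.8 scaled kb in MDP, 55.0 to 55.1 in GMP and 24.5 to 27.7 in d+56kb LMPP. Neutrophil markers summed to 112.8 to 113.3 in GMP, 89.7 to 101.2 in MDP and 58.6 to 65.6 in d+56kb LMPP. In sorted populations measured in bulk, fewer marked cells and less mark per cell cannot be told apart.

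In cDC1, Hlf, Mecom and Prdm16 had no called base in the window in either library. Of the 7 genes, 6 were lower than in LSK (19.3% of all genes lower), and the median log2 difference was -3.50, beside -0.02 over all genes tested. Adgrg1 fell from its high level in LSK to 1.19 and 0.777 scaled kb (log2 difference -4.65 ± 0.13, SE; limma, adjusted p = 4.52e-11), and Cd34 to 0.447 and 0. Esam held 2.45 and 2.46, of which the element within the gene made up 1.02 ± 0.08 (SD, n = 2), and over elements nearest to Esam its difference from LSK did not pass (-0.53, adjusted p = 0.274). Procr, at 5.30 and 3.77, was the gene that did not pass (log2 difference -0.64 ± 0.27, adjusted p = 0.0869), and passed with a pseudocount of 4000 bases (-0.44, adjusted p = 0.038). These cells also differ from LSK in organ, spleen against bone marrow.

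By element, 27 of the 46 LSK elements had no call in GMP (58.7%, beside 23.4% over all gene windows), 32 none in MDP (69.6% beside 24.6%) and 40 none in cDC1 (87.0% beside 36.3%). In both libraries of a group, the 7 genes had 38 elements in d+56kb LMPP, 18 in WT LMPP, 17 in IRF8KO LMPP, 16 in GMP, 13 in MDP and 5 in cDC1. Of the 46 LSK elements themselves, 14 were called in both GMP libraries (30.4%, beside 66.5% over all gene windows) and 13 in both MDP libraries (28.3% beside 63.4%).

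**Figure D5:**
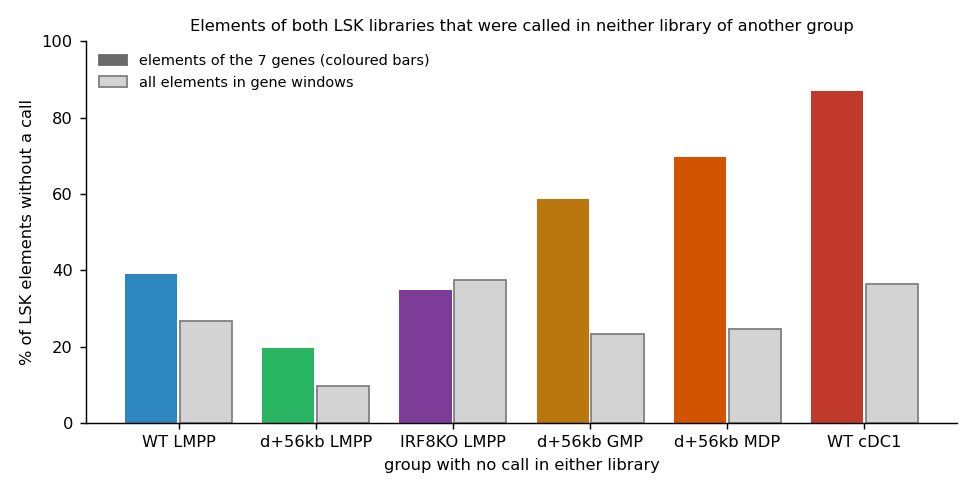
Share of elements called in both LSK libraries that had no call in either library of another group, in percent, for the 46 elements of the 7 genes (coloured) and all 20778 elements of gene windows (grey). The coloured bars stand above the grey ones in 5 of 6 groups, by most in cDC1.

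IRF8 and CEBPA peaks lay in the windows of some of these genes, and none lay at Hlf or Prdm16. Peaks called in both libraries numbered 6 for IRF8 in cDC1, 1 for IRF8 in Mo, 7 for CEBPA in Mo and 0 for CEBPA in cDC1, where only 236 merged peaks were called in all. A cDC1 IRF8 peak was in the window of 4 of 7 genes (61.2% of all genes), a Mo IRF8 peak in 1 of 7 (26.7%), a Mo CEBPA peak in 4 of 7 (57.5%) and a cDC1 CEBPA peak in 0 of 7 (0.0274%). The shares for cDC1 IRF8 and Mo CEBPA lay near those of all genes. Numbers of peaks per window were not set against all genes. Factor binding was not mapped in LSK or LMPP, the cells in which these genes carried most of their H3K27ac.

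Mecom had 1 IRF8 peak, shared by cDC1 (chr3:30414220-30414620) and Mo (chr3:30414232-30414518), in the gene 95.3 kb downstream of the upstream start. No H3K27ac library had a call there. Nor did a peak lie over the upstream promoter, whose sequence above holds the interferon-stimulated response element. Procr had 2 cDC1 IRF8 peaks. That at chr2:155743360-155743655 lay in the element at -7.6 kb, and H3K27ac was called over the peak itself in both LSK, 1 of 2 WT LMPP, both d+56kb LMPP and 1 of 2 cDC1 libraries. Its 2 Mo CEBPA peaks, chr2:155726412-155726763 and chr2:155729284-155729608, lay in the wide element nearest to Edem2, and none lay at the start, whose sequence holds the C/EBP match.

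At the other surface genes, Cd34 had 1 Mo CEBPA peak, chr1:194928032-194928356, in an element at -10.4 kb from the start. That element was called in both LSK, both GMP and both MDP libraries and in neither WT cDC1 library. In LMPP it was called in 1 of 2 WT, 2 of 2 d+56kb and 1 of 2 IRF8KO libraries. Over the peak itself, H3K27ac was called in both LSK, both MDP and 1 of 2 GMP libraries. Among LMPP these were 0 of 2 WT, 1 of 2 d+56kb and 1 of 2 IRF8KO libraries. Esam had 1 cDC1 IRF8 peak in its span, chr9:37537854-37538147, and 1 Mo CEBPA peak nearest to Msantd2, both without H3K27ac in any library. Adgrg1 had 2 cDC1 IRF8 peaks, both nearest to Adgrg5, and 3 Mo CEBPA peaks, of which chr8:94964949-94965290 was nearest to Adgrg1 itself. That peak lay in H3K27ac called in all 12 progenitor libraries and in neither cDC1 library.

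Across the 14 libraries the members followed one another to differing extents. On the log2 scale, Pearson's r was 0.92 between Hlf and Mecom, 0.90 between Mecom and Prdm16, 0.96 between Prdm16 and Esam and 0.90 between Cd34 and Adgrg1, but 0.09 between Cd34 and Procr and 0.02 between Procr and Adgrg1. These describe 7 groups of 2 libraries that share depth and cell type by group. The genes most like each member over these libraries were Rhoh and Lef1 for Hlf (r = 0.957 for both), Olfm5 and Agap1 for Mecom (0.977 and 0.974), Tspan18 and Gimap5 for Prdm16 (0.992 and 0.987) and Egfl7 and Ninj1 for Cd34 (0.973 and 0.97). For Esam they were Actr5 and Wdr63 (0.967 for both), for Procr Stat4 and Dapp1 (0.935 and 0.929) and for Adgrg1 Cfap54 and Fut7 (0.993 and 0.991).

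A list of 26 other stem and multipotent progenitor genes was read beside the members. Against WT LMPP, 2 of 26 were higher in LSK and 0 lower, Angpt1, a ligand of the TIE2 receptor (log2 difference 1.22 ± 0.26, SE; limma, adjusted p = 0.0458), and Kit, the receptor of stem cell factor (1.00 ± 0.21, adjusted p = 0.0446). Against d+56kb LMPP none passed, with 5 at an unadjusted p under 0.05, and against IRF8KO LMPP 10 were higher and 1 lower. Among the 10 were Hoxb4 and Hoxb5, neighbours that share their elements and were listed at 0 in both IRF8KO LMPP libraries, Angpt1 (1.94 ± 0.26) and Kit (1.63 ± 0.21), and Erg was lower (-0.51 ± 0.12). The medians over the list were 0.34, -0.06 and 0.37. Angpt1 and Kit, like Hlf, were called against both WT and IRF8KO LMPP.

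Further along, 8 of the 26 were lower in GMP than in d+56kb LMPP and none higher, and 13 lower and 1 higher in MDP. Meis1, a homeobox cofactor of stem cells, fell by 2.24 on the log2 scale in GMP and by 3.69 in MDP, and Egfl7, which followed Cd34 across the libraries, fell by 1.59 and 1.33. In cDC1, 17 of the 26 were lower than in LSK, led by Erg (-4.14 ± 0.12, SE; limma, adjusted p = 4.52e-11), and 1 was higher, Vwf (1.42 ± 0.21, adjusted p = 0.000122).

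Cd34, Esam and Procr are also genes of vessels, so markers of endothelial cells were read beside them. Of 10 markers, 0 passed between LSK and WT LMPP (1 at an unadjusted p under 0.05) or d+56kb LMPP (4), and 4 were higher in LSK than in IRF8KO LMPP. The summed level was 48.7 to 54.2 scaled kb in LSK, 41.6 to 42.7 in WT LMPP, 48.4 to 51.1 in d+56kb LMPP and 32.0 to 36.7 in IRF8KO LMPP, where Emcn and Sox17 were at 0. Megakaryocyte and erythroid markers summed to 46.04 to 50.7 in LSK, 32.1 to 33.5 in WT LMPP, 41.6 to 42.5 in d+56kb LMPP and 30.2 to 31.5 in IRF8KO LMPP. Both sums moved with Procr and Hlf over LSK and LMPP, and their part in those results was not tested.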

How the data were processed

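H3K27ac was analysed in 14 libraries (7 groups of 2) and IRF8 and CEBPA in 8. Per the labels and the submitters' processing notes, the authors used Bowtie 1.1.2 for alignment, HOMER 4.9 for calling each library alone, and the mm10 (GRCm38) build. Per the file headers, H3K27ac and CEBPA were called against input DNA and IRF8 without it, and replicate 2 of CEBPA was called against the input DNA of replicate 1. In the region files as deposited, start and end hold genome positions in bases (a unit of the kind other), and the score is the same for each region, so that width is the only size. The 7 input samples were not analysed here.

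Bases covered by called regions in a gene span (RefSeq, GRCm38.p6) and 50 kb on each side were counted for 21887 protein-coding genes, scaled to the mean total covered length, and fitted as log2 of bases plus 1000 with limma 3.58.1 in R 4.3.3 (trend and robust eBayes, all 14 libraries, 7 residual degrees of freedom). Genes without a covered base in 2 or more libraries were dropped and 19227 were tested, all 7 members among them, in 8 comparisons, each with Benjamini-Hochberg adjustment over all genes and a threshold of 0.05. Regions overlapping by 1 base or more were merged into elements. With 2 libraries against 2 no two-sided permutation p falls below 0.333, so elements were described without a test. The steps were tested on simulated data. Members, lists and rules were chosen with earlier results of these data known. Of each list, the genes with the largest called differences could be named, at most 4 per direction; for each member the 2 most correlated genes with a separate window; and elements by their width in LSK, their absence from LMPP or a factor peak. A few elements were chosen after their values were seen: those called in LSK alone, those at start sites, and Procr and Cd34 elements shared with later cells. Of 10 lists, the lymphoid, mast cell, B cell and T cell ones were read only for cell identity: their sums in LSK were 211.7 to 211.9 scaled kb for lymphoid priming genes, 17.6 to 18.4 scaled kb for mast cell, 17.1 to 18.9 for B cell and 29.8 to 30.9 for T and NK cell markers.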

Additional observations from a re-analysis of the deposited data

How the results depend on the processing

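Without scaling, the median of all genes was 0.71 on the log2 scale above 0 for LSK against WT LMPP, 1.01 against IRF8KO LMPP, 0.27 against d+56kb LMPP and 0.41 for d+56kb against WT LMPP, and 7, 7, 0 and 5 of the 7 members were called; Adgrg1 turned to 0.15 in LSK against d+56kb LMPP. With only regions that overlap one of the other library, by which replicates are made alike, the counts were 5 for LSK against WT LMPP, 4 against d+56kb LMPP, 3 for d+56kb and 2 for IRF8KO against WT LMPP. By the number of regions, they were 2 for LSK against WT LMPP, 1 against IRF8KO LMPP, 0 for d+56kb against WT LMPP, 2 for GMP and 3 for MDP. With the libraries of the 2 groups alone, LSK against WT LMPP, LSK against IRF8KO LMPP and d+56kb against WT LMPP gave 0 each, as all genes did (0 called of each; 3745, 4702 and 2168 at an unadjusted p under 0.05). With tags in called regions as covariate, LSK against WT LMPP and d+56kb against WT LMPP gave 0. LSK against WT LMPP gave 2 with the nearest gene, a window of 20 kb, a pseudocount of 4000 or wider regions; wider regions gave 0 for d+56kb and a window of 20 kb gave 1 for IRF8KO against WT LMPP. Leaving out each library in turn gave 0 to 2 for LSK against WT LMPP, 0 to 1 for d+56kb and 0 to 1 for IRF8KO against WT LMPP. The other counts stayed within 1.5 times. Over all genes, calls for d+56kb against WT LMPP were 103, and 3252 without scaling, 6096 with regions of both libraries and 0 with the covariate; those for LSK against WT LMPP were 236, and 10739, 8688 and 0; those for LSK against d+56kb LMPP were 2, and 14, 2334 and 0; and those for LSK against IRF8KO LMPP were 3645, and 13592, 11456 and 767. Regions of both libraries also raised IRF8KO against WT LMPP (1502 to 7019), GMP (3378 to 7610), MDP (3204 to 7461) and cDC1 (6229 to 10123). By number of regions these 4 gave 104, 460, 439 and 2622, and LSK against WT LMPP 505 and d+56kb against WT LMPP 22; by nearest gene GMP, MDP and cDC1 gave 1985, 1892 and 3756 and d+56kb against WT LMPP 156. Wider regions gave 2241 for LSK against WT LMPP, 39 and 6139 against d+56kb and IRF8KO LMPP and 459 for d+56kb against WT LMPP, and a pseudocount of 4000 gave 449 for the first. Without an LSK library, 0 or 1 gene was called against WT LMPP, 0 against d+56kb LMPP and 588 or 713 against IRF8KO LMPP; leaving out a library gave 0 to 368 for d+56kb and 892 to 2826 for IRF8KO against WT LMPP, 1618 to 1919 for GMP and 1550 to 1834 for MDP.

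With the replicate number as a block, d+56kb against WT LMPP gave 0 called members (Hlf 1.27, adjusted p = 0.0518, limma) and every other comparison kept its count. Same-numbered libraries did not deviate together (correlations of -0.036 to 0.055), so the numbers are not taken as pairs.

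Among differences of LSK from LMPP, signs turned for uncalled ones. From WT LMPP, Cd34 was -0.0506 with regions of both libraries, -0.20 with the covariate and -0.21 to 0.39 over the libraries left out, and Adgrg1 -0.31 by number, -0.11 with wider regions and -0.0142 with the covariate. From IRF8KO LMPP, Cd34 was -0.0711, -0.20 and -0.047 (both libraries, wider regions, covariate), Adgrg1 -0.24, -0.24 and -0.28 (number, both libraries, wider regions) and Esam -0.0272 with both libraries and -0.0805 to 0.57 over the libraries left out. From d+56kb LMPP, Procr was -0.35 by number and -0.0087 to 0.47 over the libraries left out. For IRF8KO against WT LMPP, Hlf, Mecom and Prdm16, none of them called, were -0.15, -0.24 and -0.06 without scaling. Causes were not tested. Calls rest on 1.26 to 10.9 M (mega) tags a library, and a region narrower than the caller's minimum or weaker than its threshold is not seen.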
